A study of Rattus norvegicus with 6 samples.

Results

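The array used on rat plasma exosomes carried 3046 probes that take their names from CIRCpedia, a circular RNA database, among 60148 noncontrol probes. They were chosen by name alone: every noncontrol probe whose name begins with RNO_CIRCpedia was taken, whatever its signal. Each is a designed 60-base oligonucleotide in 1 spot, and the other 57102 noncontrol probes, whose names begin with rclstr, are called cluster probes here. The samples were 6 arrays from Sprague-Dawley rats of 8 to 12 weeks, 3 after subarachnoid haemorrhage (SAH) from a perforation of the internal carotid artery made inside the vessel, and 3 after a sham operation in which the artery was not punctured. Blood came from the abdominal aorta on day 3 in both groups, exosomes were pelleted by ultracentrifugation, and total RNA was taken with Trizol. The labels call the replicates biological and name no pooling, and they give neither the sex of the rats nor any marker measured on the pellets. Gene symbols stood beside control probes alone, so exosome and blood cell markers could not be read from these files.

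Circular RNAs form when the splicing machinery joins the end of an exon to the start of the same or an earlier exon, an event called back-splicing. The product is a closed loop with neither a cap nor a poly(A) tail, which protects it from exonucleases, and circular RNAs are abundant in brain and are carried in extracellular vesicles. The sequence that tells a circular RNA from the linear transcript of its gene is the join, where the bases of a later exon end run directly into those of an earlier exon start. A probe laid across a join can still pair through 1 of its arms with linear RNA. The labelled cDNA was primed here with T16N2, a run of thymidines that pairs with runs of adenosine, and the labels name no step that removes linear RNA. Whether a signal came from a circular or a linear molecule was not tested.

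The join could be placed in each probe. Where 2 circRNA probes shared a run of at least 20 bases, the right end of that run plus the second number in the probe name came to 45 in 725 of 1296 cases (55.9%) and to 46 in a further 246, while values of 42 and 43 occurred in 0. The first arm of a probe was therefore taken to be 45 bases less the second number of its name, which gave left arms of 29 to 45 bases and right arms of 15 to 31 bases. The base composition was a separate check, since it did not enter that rule. Over the 3046 probes, G was the last base before the join in 78.9% and A the base before it in 68.3%, against 23.4% G and 30.7% A over all places. The letters AG stood just before the join in 1775 probes (58.3%), against 8.88% over all pairs of neighbouring places, and G followed the join in 44.1%. An exon end in AG with a G after it is the usual form of a spliced exon boundary read in the sense direction. What the last number in a name means was not worked out.

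Many circular RNAs of the set used the same exon boundary. A right arm, taken as the first 15 bases after the join, was shared by 739 probes in 331 families, and a left arm, taken as the last 29 bases before it, by 800 probes in 360 families. In all, 1320 of the 3046 probes (43.3%) shared at least 1 arm with another. Among pairs with a common right arm, 166 of 498 (33.3%) had database numbers within 10 of each other, and for left arms these were 174 of 538 (32.3%). The sequences below belong to 2 of the right-arm families with the most tested probes. They are printed 5′ to 3′ with the right arm in capitals, so that the common capitals after different lower-case arms show a single exon start joined to several exon ends.
RNO_CIRCpedia_3026_13_12: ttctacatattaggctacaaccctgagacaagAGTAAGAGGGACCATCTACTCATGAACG
RNO_CIRCpedia_3027_3_18: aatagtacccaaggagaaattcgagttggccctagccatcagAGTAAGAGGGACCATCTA
RNO_CIRCpedia_3028_16_16: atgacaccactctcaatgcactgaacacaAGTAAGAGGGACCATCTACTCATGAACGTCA
RNO_CIRCpedia_3030_16_1508: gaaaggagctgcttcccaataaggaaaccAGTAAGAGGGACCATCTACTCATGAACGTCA
RNO_CIRCpedia_1878_14_17: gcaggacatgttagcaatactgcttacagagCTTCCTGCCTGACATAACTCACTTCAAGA
RNO_CIRCpedia_1879_16_28: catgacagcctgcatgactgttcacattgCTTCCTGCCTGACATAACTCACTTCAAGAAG
RNO_CIRCpedia_8426_10_32: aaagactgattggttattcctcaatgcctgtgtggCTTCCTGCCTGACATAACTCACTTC

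The next sequences are those of the 6 probes with the smallest p higher in SAH, again with the right arm in capitals.
RNO_CIRCpedia_2212_9_16: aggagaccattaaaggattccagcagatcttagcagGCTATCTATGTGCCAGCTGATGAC
RNO_CIRCpedia_5691_0_24: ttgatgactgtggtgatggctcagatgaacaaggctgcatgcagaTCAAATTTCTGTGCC
RNO_CIRCpedia_2472_2_25: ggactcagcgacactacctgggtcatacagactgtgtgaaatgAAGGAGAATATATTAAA
RNO_CIRCpedia_4353_10_9: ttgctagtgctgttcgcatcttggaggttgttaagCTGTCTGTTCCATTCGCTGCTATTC
RNO_CIRCpedia_5470_4_14: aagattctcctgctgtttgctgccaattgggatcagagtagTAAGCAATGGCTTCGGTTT
RNO_CIRCpedia_6687_12_6: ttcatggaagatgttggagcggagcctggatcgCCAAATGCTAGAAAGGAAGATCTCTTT
The 6 probes with the smallest p lower in SAH are printed in the same way.
RNO_CIRCpedia_6573_13_10: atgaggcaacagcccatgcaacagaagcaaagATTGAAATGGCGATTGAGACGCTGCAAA
RNO_CIRCpedia_38_15_22: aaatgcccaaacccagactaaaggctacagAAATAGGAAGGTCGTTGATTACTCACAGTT
RNO_CIRCpedia_3548_16_18: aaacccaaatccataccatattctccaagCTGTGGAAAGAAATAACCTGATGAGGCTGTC
RNO_CIRCpedia_8084_14_19: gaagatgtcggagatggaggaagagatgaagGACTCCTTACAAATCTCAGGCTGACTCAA
RNO_CIRCpedia_3290_12_14: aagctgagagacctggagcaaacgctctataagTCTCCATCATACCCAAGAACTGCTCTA
RNO_CIRCpedia_4337_10_16: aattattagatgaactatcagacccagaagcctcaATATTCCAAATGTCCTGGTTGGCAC
A further 5 probes passed the adjusted threshold without sham replicate 2 and neither with all arrays nor with the replicate block. They are shown because 1 array decided their call.
RNO_CIRCpedia_6030_8_20: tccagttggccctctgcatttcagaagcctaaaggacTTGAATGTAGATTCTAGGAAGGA
RNO_CIRCpedia_1150_3_21: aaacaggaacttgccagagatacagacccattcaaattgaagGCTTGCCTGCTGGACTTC
RNO_CIRCpedia_45_1_18: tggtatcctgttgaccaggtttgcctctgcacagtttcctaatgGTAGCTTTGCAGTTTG
RNO_CIRCpedia_5602_0_20: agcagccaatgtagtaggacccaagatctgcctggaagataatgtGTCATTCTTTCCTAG
RNO_CIRCpedia_9961_15_6: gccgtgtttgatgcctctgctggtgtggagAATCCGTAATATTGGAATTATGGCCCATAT

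The 8 probes with the highest mean signal over the 6 arrays follow in order of signal, with the letters CCCTC, a cytosine-rich run of 5 bases, in capitals where they occur.
RNO_CIRCpedia_9761_0_24: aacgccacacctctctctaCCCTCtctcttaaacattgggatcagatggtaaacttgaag
RNO_CIRCpedia_9077_2_1008: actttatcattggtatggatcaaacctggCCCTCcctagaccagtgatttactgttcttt
RNO_CIRCpedia_641_1_14: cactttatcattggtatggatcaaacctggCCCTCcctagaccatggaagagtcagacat
RNO_CIRCpedia_5171_2_14: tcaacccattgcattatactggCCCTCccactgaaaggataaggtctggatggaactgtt
RNO_CIRCpedia_8146_5_32: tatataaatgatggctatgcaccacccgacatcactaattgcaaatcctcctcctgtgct
RNO_CIRCpedia_1339_7_10: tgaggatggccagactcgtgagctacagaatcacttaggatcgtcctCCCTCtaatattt
RNO_CIRCpedia_8425_0_14: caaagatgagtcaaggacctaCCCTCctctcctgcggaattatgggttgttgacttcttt
RNO_CIRCpedia_4712_1_26: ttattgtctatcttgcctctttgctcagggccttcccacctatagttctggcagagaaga

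Before the comparisons, the arrays have to be described. Signals are log2 processed intensity minus the 75th percentile of the array, and a probe counts as detected where the scanner software marked it well above background. SAH replicate 3 had the most detected circRNA probes, 1609. Sham replicate 2 resembled the SAH arrays: over the tested circRNA probes its Pearson correlations with SAH replicates 1, 2 and 3 ran from 0.916 to 0.932, against 0.869 to 0.902 between sham arrays and 0.835 to 0.899 for the other sham arrays against SAH. These correlations run across probes, which are not independent replicates. Sham replicate 1 was alone on its slide, and the other 5 arrays shared a slide. With 3 arrays a group, precision is limited throughout.

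Circular RNA probes gave signal on every array, but a minority of them did so everywhere. Of the 3046, 1827 were detected on at least 1 array, 497 (16.3%) on all 6 and 1219 (40%) on none, and among cluster probes 18.3% were detected on all 6 and 41.3% on none. Sham replicates 1, 2 and 3 had 838, 1218 and 751 detected circRNA probes. SAH replicates 1, 2 and 3 had 1003, 939 and 1609. Sham replicate 2 lay above SAH replicates 1 and 2, so the groups overlapped.

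The SAH arrays had 1184 ± 370 detected circRNA probes on average (SD, n = 3), and the sham arrays 936 ± 248 (SD, n = 3). That difference of 248 probes lay within the spread between arrays (two-sided exact permutation test, p = 0.5; 0.1 is the least 3 arrays against 3 can give). Without SAH replicate 3 it was 35.3, without sham replicate 2 it was 389 and without sham replicate 3 it was 156. The share detected on each array was close to that of the cluster probes on the same array: 27.5% against 29.9% on sham replicate 1, for example, and 52.8% against 52.1% on SAH replicate 3.

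Detection varied with base composition and, less widely, with the place of the join. The probes held 24 to 28 G or C bases, and the share detected on all 6 arrays was 5.41% of the 481 probes with 24, 13.9% of the 504 with 27 and 24.6% of the 1261 with 28. Cluster probes with the same counts gave 7.09%, 17.1% and 22.7%. The Spearman correlation between G and C content and the number of arrays with detection was 0.26 over the 3046 circRNA probes and 0.22 over the 57102 cluster probes, given as a description. By the place of the join, the share detected on all 6 arrays was lower at both ends of the range: 13.7% of the 680 probes with the shortest left arm, of 29 bases, and 12.1% of the 536 with the longest, of 45 bases, against 18.5% of the 1830 between. The single places between them ran from 10.5% at 40 bases to 26.4% at 44 bases. Detection on at least 1 array held for 55.0% at each end and for 63.3% between. Base composition differed in the same way, since 26.8% of probes with the shortest left arm, 31.2% of those with the longest and 49.8% of those between held 28 G or C bases. The part of base composition in this pattern was not tested.

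Several of the brightest circular RNA probes held the same short sequence. Of the 8 printed above, 6 held CCCTC, as did 18 of the 50 brightest (36.0%), while 71 of all 3046 (2.33%) held it. These letters were chosen after the signals of these same arrays were seen. High detection of the circRNA probes that hold them follows in part from that choice, so the shares below are a description and test nothing. Of the 71, 49 (69.0%) were detected on all 6 arrays, against 448 of the other 2975 (15.1%). The share of the 71 detected was 77.5%, 85.9% and 76.1% on the sham arrays in order of replicate and 84.5%, 77.5% and 94.4% on the SAH arrays, so it was high on each array of both groups. The run lay in the left arm in 48 of the probes, in the right arm in 23 and over the join in 0. Its reverse complement, GAGGG, was in 3.51% of circRNA probes, and of these 29.9% were detected on all 6 arrays, and 1 probe held both.

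A like contrast appeared among the cluster probes. CCCTC was in 1987 cluster probes (3.48%), of which 63.2% were detected on all 6 arrays, against 16.7% of the other 55115. It also appeared at a fixed base composition: of circRNA probes with 28 G or C bases, 36 of 48 with CCCTC were detected on all 6 arrays, and 274 of 1213 without it. A match of these letters is a description of the probe and shows nothing about what bound it.

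Among the brightest, RNO_CIRCpedia_9761_0_24 had processed intensities of 3270, 7590 and 3060 on the sham arrays, in order of replicate, and 6180, 8040 and 10800 on the SAH arrays. Values below keep that order. After scaling it stood at 5.85, 6.23 and 5.58 in sham and 6.08, 6.35 and 6.36 in SAH, and the groups overlapped (difference 0.37 ± 0.29 (SE), limma adjusted p = 0.52). RNO_CIRCpedia_9077_2_1008 and RNO_CIRCpedia_641_1_14 share a left arm that holds the run, and differ after the join. The first stood at 6.0, 5.82 and 6.60 in sham and 5.82, 6.05 and 5.72 in SAH. The second stood at 5.37, 5.54 and 6.35 in sham and 5.38, 4.99 and 5.14 in SAH. Both were highest on sham replicate 3, both pairs of groups overlapped, and their differences were -0.28 (limma adjusted p = 0.64) and -0.58 (limma adjusted p = 0.41).

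RNO_CIRCpedia_5171_2_14 was also highest on sham replicate 3, at 5.21, 5.23 and 5.99 in sham and 5.06, 4.63 and 4.78 in SAH, without overlap between the groups (difference -0.65 ± 0.31 (SE), limma adjusted p = 0.35). The other 4 of the brightest, RNO_CIRCpedia_8146_5_32, RNO_CIRCpedia_1339_7_10, RNO_CIRCpedia_8425_0_14 and RNO_CIRCpedia_4712_1_26, had differences of -0.28, -0.30, 0.20 and -0.27. No one of these 8 passed the adjusted threshold.

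The submitters describe 1 comparison, SAH with sham. No circular RNA probe differed between the groups after correction for the number of probes tested. Those detected on all 3 arrays of at least 1 group were tested, 788 of the 3046: 497 passed through both groups, 235 through SAH alone and 56 through sham alone. A probe that passed through 1 group alone was not detected on at least 1 array of the other. This favours higher values in the group that passed without requiring them, so the counts of this set depend on that filter. With limma's moderated test and Benjamini-Hochberg adjustment over all 17158 tested probes, 0 of the 788 had an adjusted p under 0.05 (0.00% of all tested probes did), and the smallest adjusted p was 0.27. At an unadjusted p under 0.05, 27 (3.43%) were higher in SAH, against 9.17% of all tested probes, and 51 (6.47%) were lower, against 5.56%. That balance turned with the scaling, and all tested probes moved the same way. With the 75th percentile over all probes, 48 (6.09%) were higher and 12 (1.52%) lower, against 14.1% and 1.81% of all tested probes. With the median over all probes these were 37 (4.7%) and 16 (2.03%), against 12.0% and 2.54%. Quantile normalization gave 47 (5.96%) and 26 (3.3%), against 11.2% and 4.14%. The deposited values gave 46 (5.84%) and 24 (3.05%), against 11.6% and 3.61%.

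The replicate block and 1 array changed the number of calls. Without sham replicate 2 the fit called 9 circRNA probes (1.14%), all higher in SAH, where it called 3.86% of all tested probes. With the replicate number as a block it called 3 (0.381%), where it called 2.42% of all tested probes, and the 3 were among the 9.

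A screening rule without correction asked for an unadjusted p below 0.05 together with a difference of 2-fold or more. It took 14 circRNA probes as higher in SAH, where 5.93% of all tested probes met it, and 7 as lower, where 1.08% did. The share higher among the 21 was 66.7%. These probes share arrays and are not independent. More of the tested probes passed the filter through SAH alone (235) than through sham alone (56). The split of directions under the rule moved with the scaling: it was 28 higher and 2 lower with the 75th percentile over all probes, and 22 and 4 with the median over all probes. It was 88.0% higher of 25 with quantile normalization and 91.3% higher of 23 with the deposited values. In that order, the rule took 3.81%, 3.3%, 3.17% and 2.92% of the tested circRNA probes. Of all tested probes it took 9.48%, 8.59%, 7.17% and 7.37%. These scalings moved the median difference of all tested probes from -0.15 to values between -0.035 and 0.037. Among all tested probes that met the rule, they moved the share higher from 84.62% to between 91.93% and 95.02%. Without sham replicate 2 the rule took 44 circRNA probes (5.58%), against 12.1% of all tested probes. Without SAH replicate 3 it took 40 (5.08%), of which 30.0% were higher. Of all tested probes it then took 7.54%, of which 59.51% were higher.

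The values of the 3 SAH arrays lay wholly above those of the 3 sham arrays for 30 tested circRNA probes (3.81%), against 9.53% of all tested probes. They lay wholly below for 97 (12.3%), against 12.3% of all tested probes, so that count was at the background. The balance of directions depended on the scaling, with 77 above and 48 below with the 75th percentile over all probes, 49 and 61 with the median over all probes, 64 and 75 with quantile normalization and 64 and 71 with the deposited values. Over all tested probes, 15.2% lay above and 4.97% below with the 75th percentile over all probes, and 11.4% and 6.6% with the median. Quantile normalization gave 12.5% and 9.81% of all tested probes, and the deposited values 12.7% and 9.24%. For circRNA probes these shares were 9.77% and 6.09%, 6.22% and 7.74%, 8.12% and 9.52%, and 8.12% and 9.01%, in the same order. The median difference over the 788 was -0.20, and over all tested probes -0.15.

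The contrast with the rest of the array was in the upper end of the differences. Among probes detected on all 6 arrays, which no group brought in alone, 6 of 497 circRNA probes (1.21%) were higher in SAH at an unadjusted p under 0.05, against 8.80% of the 10957 probes of this kind. Lower in SAH were 54 of the 497 (10.9%), against 8.74%. The balance of directions turned with the scaling. With the 75th percentile over all probes it was 18 higher (3.62%) and 5 lower (1.01%), against 12.2% and 1.54% of the 10957. With the median over all probes it was 8 (1.61%) and 14 (2.82%), against 10.3% and 2.32%. The 95th percentile of the differences was 0.35 for the circRNA probes and 0.94 for all 10957, while the 5th percentiles were -0.72 and -0.70. The largest difference was 1.14 among the circRNA probes and 2.53 among all of them.

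The share higher was smaller for circRNA probes under each of 13 settings run on these probes, which covered scalings, background correction, the deposited values, the replicate block and each array left out. A slide block gives the same fit as leaving out sham replicate 1, which was alone on its slide, and was not counted again. It ran from 0.201% to 3.62% for circRNA probes and from 3.97% to 12.2% for all. The share lower showed no such order: it ran from 1.01% to 21.1% for circRNA probes and from 1.54% to 17.2% for all, with circRNA probes below all probes in 3 of the 13. These settings share arrays, and the contrast between probe classes has no test here. The median signal of these circRNA probes was -1.47 and of all 10957 was -1.23; the part of signal level in the contrast was not tested.

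The 6 probes printed above as higher in SAH were dim, and several were detected on no sham array. RNO_CIRCpedia_2212_9_16 stood at -4.36, -3.21 and -4.60 in sham and at -2.72, -2.43 and -1.62 in SAH. Its processed intensities were 2.76, 10.9 and 2.63 in sham and 13.9, 18.3 and 42.4 in SAH. Sham replicate 2 was the highest sham array, and the groups did not overlap. The probe was detected on 3 SAH arrays and on 0 sham arrays, which gives a lower bound of 1.30-fold on these arrays. For such a bound, each sham array enters with the probe's own value or the dimmest detected signal of that array, whichever is higher. The probe was picked for its small p and passed the filter through SAH alone, so the bound describes these values and tests nothing. The fitted difference was 1.80 ± 0.42 (SE; limma adjusted p = 0.27), 2.23 without sham replicate 2 (limma adjusted p = 0.014) and unchanged in size with the replicate block (limma adjusted p = 0.0196).

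RNO_CIRCpedia_4353_10_9 had the largest difference of all tested circRNA probes, 2.26 ± 0.66 (SE; limma adjusted p = 0.27). It stood at -4.02, -1.24 and -3.94 in sham and at -0.56, -0.30 and -1.57 in SAH. Sham replicate 2 lay above SAH replicate 3, so the groups overlapped. Without sham replicate 2 the difference was 3.17 (limma adjusted p = 0.0086). RNO_CIRCpedia_2472_2_25 stood at -4.27, -2.75 and -3.30 in sham and at -2.47, -1.79 and -1.90 in SAH, without overlap, with a difference of 1.39 and 1.73 without sham replicate 2 (limma adjusted p = 0.27 and 0.0405).

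RNO_CIRCpedia_5470_4_14 stood at -3.97, -2.67 and -4.66 in sham and at -2.59, -2.29 and -2.02 in SAH. The groups were separated by the small gap between sham replicate 2 and SAH replicate 1, and the difference of 1.47 became 2.01 without sham replicate 2 (limma adjusted p = 0.0141). The other 2 of the 6, RNO_CIRCpedia_5691_0_24 and RNO_CIRCpedia_6687_12_6, did not overlap between groups, with differences of 1.30 and 0.85. With normexp, a background correction that adds 50 to every signal here, differences this dim shrank: 2.26 became 0.38 for RNO_CIRCpedia_4353_10_9 and 1.80 became 0.026 for RNO_CIRCpedia_2212_9_16. Those of RNO_CIRCpedia_5470_4_14, RNO_CIRCpedia_5691_0_24 and RNO_CIRCpedia_6687_12_6 turned to -0.027, -0.026 and -0.085.

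Detection on all 3 SAH arrays and on 0 sham arrays held for 23 circRNA probes (0.755%), against 0.725% of all noncontrol probes, so that count was near the background. The reverse held for 0 of them and for 0.0266% of all. The 8 of the 23 with the smallest p were RNO_CIRCpedia_2212_9_16, RNO_CIRCpedia_5691_0_24, RNO_CIRCpedia_6687_12_6, RNO_CIRCpedia_9734_14_10, RNO_CIRCpedia_6482_5_20, RNO_CIRCpedia_6030_8_20, RNO_CIRCpedia_4638_9_32 and RNO_CIRCpedia_9148_0_17. Their bounds on these arrays ran from 1.02-fold for RNO_CIRCpedia_6030_8_20 to 1.53-fold for RNO_CIRCpedia_9734_14_10. RNO_CIRCpedia_3230_16_17, also among the 23, had a bound of 0.911-fold, so such detection alone did not bound the signal as higher in SAH. RNO_CIRCpedia_9734_14_10 stood at -2.57, -2.97 and -3.95 in sham and at -1.64, -2.42 and -2.00 in SAH. The values did not overlap, but the dimmest SAH array lay close to the brightest sham array. SAH replicate 3 had more detected probes of both classes than each other array, and the part of this in the 23 was not tested.

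The 5 further probes called without sham replicate 2 showed how much that array weighed. RNO_CIRCpedia_45_1_18 stood at -0.84, 0.036 and -1.93 in sham and at 0.22, 0.28 and 0.19 in SAH. RNO_CIRCpedia_9961_15_6 stood at -1.11, -0.16 and -1.72 in sham and at -0.17, 0.060 and 0.10 in SAH. RNO_CIRCpedia_1150_3_21 stood at -1.67, -0.66 and -2.06 in sham and at -0.60, -0.54 and -0.45 in SAH. In each of these, sham replicate 2 lay next to or within the SAH arrays, and the SAH arrays differed little among themselves.

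The 3 were detected on all 6 arrays, and their differences were 1.14, 1.00 and 0.93 with all arrays (limma adjusted p = 0.29, 0.30 and 0.30). Without sham replicate 2 these became 1.61, 1.41 and 1.33 (limma adjusted p = 0.044, 0.0413 and 0.0391). RNO_CIRCpedia_5602_0_20 went further: sham replicate 2, at -1.03, lay above SAH at -2.02, -2.12 and -1.70, while sham replicates 1 and 3 lay at -4.38 and -4.71. Its difference was 1.43 with all arrays (limma adjusted p = 0.39) and 2.60 without sham replicate 2 (limma adjusted p = 0.0086). RNO_CIRCpedia_6030_8_20 stood at -4.42, -2.95 and -3.77 in sham and at -2.27, -2.89 and -2.67 in SAH, with sham replicate 2 just below the SAH range. Its difference of 1.11 (limma adjusted p = 0.28) became 1.49 without sham replicate 2 (limma adjusted p = 0.0463). The labels give no reason to leave that array out.

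The 6 probes printed as lower in SAH were detected on all 3 sham arrays, and 2 of them also on all 3 SAH arrays. RNO_CIRCpedia_38_15_22, detected on all 6 arrays, stood at -1.19, -1.25 and -0.60 in sham and at -2.12, -2.37 and -1.87 in SAH. The groups did not overlap, and the difference was -1.11 ± 0.30 (SE; limma adjusted p = 0.27). RNO_CIRCpedia_8084_14_19, also detected on all 6, stood at -0.69, -1.29 and -1.87 in sham and at -2.65, -2.04 and -2.52 in SAH, without overlap, a difference of -1.12 ± 0.35 (SE; limma adjusted p = 0.27).

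RNO_CIRCpedia_6573_13_10 had the smallest p of those lower in SAH, at -2.11, -1.83 and -2.31 in sham and -3.43, -4.36 and -2.85 in SAH. It was detected on 3 sham arrays and on 1 SAH array, and the difference was -1.46 ± 0.38 (SE; limma adjusted p = 0.27). RNO_CIRCpedia_4337_10_16, RNO_CIRCpedia_3548_16_18 and RNO_CIRCpedia_3290_12_14 had differences of -1.42, -1.17 and -1.02. In these 4 the lowest value was on SAH replicate 2. With normexp these 6 differences lay between -0.55 and -0.41, of the same sign as before, and without sham replicate 2 between -1.50 and -1.03.

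Probes that share an exon start and probes that share an exon end were compared for their differences between SAH and sham. Of all 310078 pairs of tested circRNA probes, 56.7% had differences of the same sign, with a median gap of 0.39 between the 2 differences. Of 47 pairs with the same right arm, 32 (68.1%) had the same sign, with a median gap of 0.27 and a Pearson correlation of 0.40 across pairs. Of 60 pairs with the same left arm, 37 (61.7%) had the same sign, with a median gap of 0.30 and a correlation of -0.027. Probes of a family share bases and arrays, so the pairs are not independent, and neither the contrast with all pairs nor that between arms has a test.

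In the family of RNO_CIRCpedia_1878_14_17, whose right arm begins CTTCCTGCCTGACAT, all 3 probes had positive differences. RNO_CIRCpedia_1878_14_17 stood at -1.57, -1.69 and -2.97 in sham and at -1.25, -1.35 and -1.13 in SAH, without overlap. RNO_CIRCpedia_1879_16_28 stood at -1.50, -1.12 and -2.20 in sham and at -1.03, -1.28 and -0.83 in SAH. RNO_CIRCpedia_8426_10_32 stood at -0.96, -0.42 and -1.56 in sham and at -0.58, -0.40 and -0.13 in SAH. In the last 2 sham replicate 2 lay within the SAH range, and sham replicate 3 was the lowest array in each of the 3.

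Their differences were 0.83, 0.56 and 0.61 (limma adjusted p = 0.34, 0.43 and 0.40), and without sham replicate 2 they were 1.03, 0.80 and 0.89, none past the adjusted threshold. The 3 left arms differ and the exon start is common, but the probes also share arrays. The part of the exon start in these differences was not tested. The family of RNO_CIRCpedia_3026_13_12, with 4 probes detected on all 6 arrays and a right arm that begins AGTAAGAGGGACCAT, gave mixed values. Differences were 0.046 for RNO_CIRCpedia_3026_13_12, -0.60 for RNO_CIRCpedia_3027_3_18, -0.55 for RNO_CIRCpedia_3028_16_16 and -0.18 for RNO_CIRCpedia_3030_16_1508, with limma adjusted p from 0.44 to 0.94.

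RNO_CIRCpedia_3030_16_1508 also shared its left arm with RNO_CIRCpedia_3025_0_38 and RNO_CIRCpedia_6886_13_22, whose differences were -0.38 and -0.58. Its values varied little, at -0.91, -0.85 and -0.92 in sham and -0.97, -1.29 and -0.94 in SAH. A left arm was also common to RNO_CIRCpedia_3229_0_22, RNO_CIRCpedia_3230_16_17 and RNO_CIRCpedia_3231_14_23, with differences of 0.14, 0.46 and 0.25. The second of these was detected on 3 SAH arrays and 0 sham arrays, while the other 2 were detected on all 6. The family of RNO_CIRCpedia_2088_16_34 had differences of -0.18, -0.081 and -0.52, and the right-arm family of RNO_CIRCpedia_6243_15_18 had 0.055, 0.14 and 0.20. In none of these families did a probe pass the adjusted threshold.

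Some circular RNA probes read the same exon as a cluster probe. A run of at least 30 bases on the same strand was shared by 256 circRNA probes with 236 cluster probes, in 261 pairs, and 1 circRNA probe matched a cluster probe in reverse complement. The shared run ended within 3 bases of the join in 168 of the 261 pairs and extended more than 3 bases past it on both sides in 7. A cluster probe could run on beyond the shared bases with other bases, as in the pair printed below. Of the 256, 35 (13.7%) were detected on all 6 arrays, against 16.3% of all circRNA probes.

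In the 33 pairs with both probes tested, the differences had a Pearson correlation of 0.43 across pairs, given as a description. The pair below is shown because it shares 48 bases and both probes were detected on all 6 arrays, with the shared run in capitals.
RNO_CIRCpedia_2447_0_10: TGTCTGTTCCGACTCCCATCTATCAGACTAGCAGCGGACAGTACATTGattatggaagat
rclstr_24551_362_5: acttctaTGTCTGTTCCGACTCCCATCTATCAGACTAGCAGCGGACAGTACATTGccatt
The circRNA probe RNO_CIRCpedia_2447_0_10 stood at -0.56, 0.15 and 0.29 in sham and at -0.68, -0.58 and -1.05 in SAH, a difference of -0.73 (limma adjusted p = 0.33). The cluster probe rclstr_24551_362_5 stood at -0.29, -0.055 and 0.43 in sham and at -0.43, -0.42 and -1.22 in SAH, a difference of -0.72 (limma adjusted p = 0.34). Both were lowest on SAH replicate 3, neither had groups that overlapped, and the values of this circRNA probe cannot be told apart from those of RNA that holds the left arm alone.

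The longest shared run, 49 bases, was between RNO_CIRCpedia_394_0_20 and rclstr_23858_1799_11, with differences of -0.38 and 0.035. RNO_CIRCpedia_2799_0_16 and rclstr_21182_1250_11, with 45 shared bases ending exactly at the join, had differences of -0.94 and -0.51. Sharing a long run thus went with like differences in some pairs and not in others.

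Few circular RNA probes matched the sequence around an annotated gene start. RefSeq's table of promoter windows (250 bases before to 50 after each annotated start, build GRCr8) held 33469 windows of 27457 genes, and 17 circRNA probes shared at least 30 bases on the gene's strand with 1 of them. These windows hold only the bases around a start, so the other probes are unnamed here. A match that lies wholly before the start is outside that annotated transcript, so it does not name the gene of the circular RNA. Of the 17 matches, only those to St3gal5, Dennd1b and Zcchc9 reached past the start. Of the 17, 4 were tested. RNO_CIRCpedia_9823_15_17 matched 32 bases at the start of an annotated transcript of St3gal5, which encodes the sialyltransferase that makes the ganglioside GM3, at chr4:105726766-105726797 on the plus strand. Its right arm carries that match, its values were -0.28, -0.77 and -0.46 in sham and -0.94, -0.93 and -1.10 in SAH, and the groups did not overlap (difference -0.49 ± 0.27 (SE), limma adjusted p = 0.41).

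RNO_CIRCpedia_9395_16_10 matched 33 bases at chr1:42754637-42754669 on the plus strand, upstream of an annotated start of Plekhg1, a gene named for its pleckstrin homology and RhoGEF domains. It stood at -1.74, -1.51 and -1.0 in sham and at -1.35, -1.83 and -2.11 in SAH, and the groups overlapped. RNO_CIRCpedia_7536_7_12 and RNO_CIRCpedia_8009_5_28 matched windows of LOC134482574 and LOC134480616, also wholly upstream of the annotated starts. Their differences were -0.29 and 1.00 (limma adjusted p = 0.61 and 0.45). RNO_CIRCpedia_8009_5_28 rested on sham replicate 3, which stood at -4.52 against -2.29 and -1.52 on the other sham arrays. Matches to Dennd1b, Klhl32, Cdh7, Zfp831, Zcchc9 and Coq3 belonged to probes that were not tested, and of these 6 probes 4 were detected on 0 arrays. The matches to Klhl32, Cdh7, Zfp831 and Coq3 lay wholly upstream of the annotated start.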

How the data were processed

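Plasma exosome RNA of 3 SAH and 3 sham rats was measured on 6 single-colour arrays. Per the file headers, Agilent Feature Extraction (version 10.7.1.1 in the submitters' processing notes) gave each spot a processed intensity with background subtracted and spatial trends removed, not normalized between arrays, with flags for spots well above background. A table of values deposited by the authors is in log2 units, as its agreement with the scanner signal shows, and how it was normalized is not stated in these sources.

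Outlier spots (0 to 2 circRNA spots per array) were dropped. From log2 processed intensity, each array's 75th percentile was subtracted, taken over 10957 probes that every array marked as well above background. Probes well above background on all 3 arrays of a group, 17158 in all, were fitted with limma 3.58.1 in R 4.3.3 (lmFit, eBayes, two-sided, Benjamini-Hochberg). The fit was tested on simulated data. The labels do not state that replicate numbers pair the samples, so the main fit had no block.

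Named probes were the 6 with the smallest p in each direction, the 8 brightest, up to 8 detected in a single group, the longest shared runs, and probes whose call 1 array decided. No 2 probes shared a database number. The family examples and CCCTC were chosen after values were seen. The members and lists were chosen with earlier results of these data known. The search against RefSeq proteins, and with it the gene and marker lists, was not run, since no protein table was used here. Alternatives are given in the closing section.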

Additional observations from a re-analysis of the deposited data

How the results depend on the processing

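The number of circRNA probes with an adjusted p under 0.05 was 0 with every array and 3 with the replicate block, and leaving out each array in turn gave 0 to 9 (over all tested probes 416 with the block and 663 without sham replicate 2). On probes detected on all 6 arrays, the replicate block called 4 of 497 circRNA probes, 1 higher and 3 lower. It called 478 of all 10957 such probes, 441 higher and 37 lower. Leaving out sham replicate 2 called 5 of the 497, 3 higher and 2 lower, and 548 of the 10957, 510 higher and 38 lower. The labels state no pairs by replicate number. Correlations of the deviations of same-numbered arrays were -0.024, 0.231 and -0.143, and those of differently numbered arrays ran from -0.2102 to 0.2339. With 3 arrays a group, these values cannot decide whether the samples were paired. The screening rule took 21 circRNA probes (66.67% higher in SAH), 0 with normexp, 134 (22.39% higher) without a filter and 4 (25.0% higher) on all 6 arrays, and 16 to 44 (30.0% to 81.25% higher) with each array left out. The share higher was 93.33% with the 75th percentile over all probes, 91.3% with the deposited values and 88.0% after quantile normalization. The counts under the rule were 2.66% of tested circRNA probes against 7.01% of all, and 0.0% against 1.78% with normexp. They were 4.4% against 5.28% without a filter and 0.805% against 4.63% on all 6 arrays. With each array left out they were 2.03% to 5.58%, against 4.7% to 12.1%. Groups did not overlap for 127 circRNA probes (30 higher and 97 lower), and for 267 with normexp (10 and 257, where 5.64% and 26.0% of all tested probes did not). Without a filter they did not overlap for 362 (72 and 290, against 4.18% and 10.0% of all probes). With each array left out the count was 169 to 279, where fewer values have to separate. The share over all tested probes was not counted for those fits, so this range has no background and nothing is read from it. Shared runs with cluster probes were found in 436 circRNA probes at 20 bases, 75 at 40 bases and 1 in reverse complement. The median difference stayed below 0 in each alternative, from -0.30 to -0.0087, and the difference in detected probes above 0. With normexp, whose added 50 by construction shrinks dim differences, 9 named differences turned sign: RNO_CIRCpedia_5691_0_24 to -0.026, RNO_CIRCpedia_5470_4_14 to -0.027, RNO_CIRCpedia_6687_12_6 to -0.085, RNO_CIRCpedia_9734_14_10 to -0.0069, RNO_CIRCpedia_6482_5_20 to -0.113, RNO_CIRCpedia_6030_8_20 to -0.108, RNO_CIRCpedia_4638_9_32 to -0.067, RNO_CIRCpedia_9148_0_17 to -0.0078 and RNO_CIRCpedia_5602_0_20 to -0.073. Normexp also started from the mean spot signal and the median local background, and each array was scaled anew. What turned these signs, and the cause of the other changes, was not tested. The settings on probes detected on all 6 arrays, the search for CCCTC and the placing of the join were chosen after seeing the data. The protein match was not run.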
